A study of Jaculus jaculus with 13 samples.

Results

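The comparison described here is that of rehydrated with control kidneys in male Lesser Egyptian Jerboas (Jaculus jaculus), a desert rodent. Its members are the 5 animals of the table's columns labelled RHM and the 4 labelled CM, 9 of the 13 animals with a label in the series. The 4 dehydrated animals (DHM) entered the same fit and are given beside them. All were wild-caught adult males of unreported exact age, housed singly with dry food, and the RNA was polyA RNA of the whole left kidney. Control animals drank freely. Per the labels the rehydrated animals were without water for 7 days and then drank freely for 3 days, and the dehydrated animals were without water for 11 days. The paper's account of the animals gives other durations for the dehydrated males and for the return of water. There is no group killed at the end of the shorter restriction, so the state of the kidney at the moment water came back was not measured.

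Background for these genes is as follows. In the collecting duct, vasopressin places the water channel AQP2 in the apical membrane, water leaves the cell through AQP3 and AQP4 on the other side, and sodium enters through the epithelial sodium channel (ENaC). AQP1 is the water channel of the proximal tubule and thin descending limb. Osmolyte transporters such as SLC6A12 load medullary cells with betaine when the medulla is concentrated. Bone morphogenetic proteins (BMPs) and TGF-beta act through paired type I and type II receptors and SMAD transcription factors, and secreted antagonists such as FST and NBL1 hold the ligands.

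The question of the comparison is which genes were at the control level after water came back and which were not. Over 15064 genes, 4331 (28.8%) passed a padj of 0.01 in rehydrated against control kidneys, where padj is the p-value of the quasi-likelihood test in edgeR after adjustment by the method of Benjamini and Hochberg. Of these, 1887 (12.5% of all) were higher and 2444 (16.2%) were lower. Called genes that were higher had a median log2 fold change of 0.60 and those that were lower had −0.87. A change of over 2-fold was held by 303 of the higher genes and 936 of the lower ones. The median over all genes was 0.03. ENaC subunits and 4 splicing-linked genes were among the higher genes, and 5 BMP and TGF-beta receptors, SMAD5 and UHMK1 among the lower ones, whereas AQP2, AQP3 and SMAD7 did not pass the test. In whole kidney fewer cells of a type and less RNA per cell cannot be told apart.

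Gene length ran through this comparison, with short genes shifted up and long genes down in the rehydrated animals, and was kept apart as follows. A second fit was given an offset per animal, a smooth curve of the log2 deviations of all genes on log2 exon length (loess, span 0.3). This takes out the trend with length on average over all genes, whatever its source. Among the genes with the highest counts a median log2 fold change of 0.18 was left in short genes (up to 939 bases) against 0.04 in long ones (over 1809 bases), and among those with the lowest counts the trend was turned round (−0.01 and 0.21). With the offset 4251 genes (28.2%) were called, 2028 (13.5%) higher and 2223 (14.8%) lower. Of these, 3755 were called in both fits, 1640 higher and 2115 lower, and 0 calls turned direction. The offset removed 576 calls (247 higher, 329 lower) and added 496 (388 higher, 108 lower). Fold changes with the offset are given beside the others.

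Total counts were 19801654 to 22949762 in controls and 14071802 to 19267059 in rehydrated animals, and the 10 most abundant genes held 11.2% to 14.5% and 14.6% to 17.5% of them. The share of counts on the mitochondrial genome was 9.60, 12.5, 11.4 and 11.5% in controls (CM01, CM03, CM04 and CM06) and 16.4, 13.1, 12.2, 12.9 and 15.4% in rehydrated animals (RHM01, RHM02, RHM04, RHM07 and RHM08), and the groups overlapped. Rehydrated animals had a higher mean share by 2.76 percentage points (p = 0.0317 in a two-sided exact permutation test over animals, 0.0397 after adjustment for 5 such tests). The paper describes lower RNA integrity in the rehydration group, though all sequenced samples lay above a minimum that it states. From the clustering of samples by condition it proposes that integrity did not mainly drive the group differences. With no value per animal given here, the difference in integrity and the condition cannot be told apart. CM01 and RHM01 stood apart in genes of immune terms, as given with that list. AQP2 and ENaC, defining genes of the collecting duct, and AQP1, of the proximal tubule, were read in every animal.

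The named genes that follow are the 38 that the paper identifies by both symbol and identifier, 36 of which had enough counts to be tested. The paper chose most of them on these animals, so their direction is not independent evidence. Of the 36, 17 were called (9 higher, 8 lower) both with and without the offset, against 28.8% of all genes. None crossed the threshold with the offset, and no log2 fold change moved by more than 0.20. Levels are in CPM, the count of a gene relative to the TMM-scaled library total of the animal, and are not set against each other between genes. Coordinates are of JacJac1.0, exon bases are those of the count table, and none of these genes shares exon bases with another annotated gene.

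**Figure D1:**
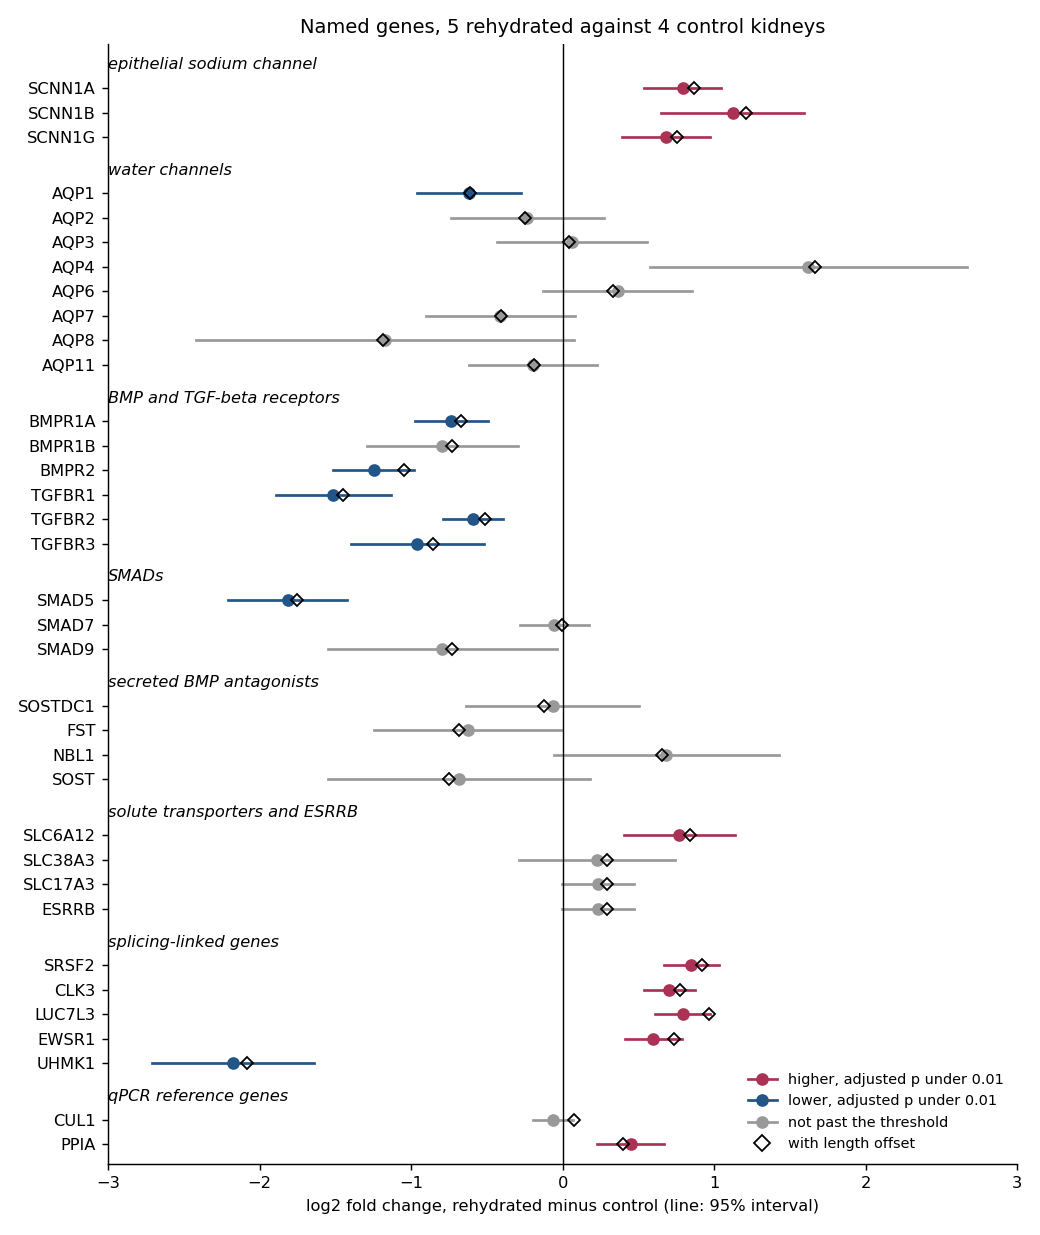
Log2 fold change of rehydrated minus control kidneys (horizontal axis) for the named genes by family, as filled points with the 95% interval as a line, colored by direction where the adjusted p was under 0.01 and grey otherwise. Open diamonds give the value with the length offset, which lies within 0.20 of the filled point for every gene.

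All 3 subunits of ENaC were called higher in rehydrated than in control kidneys, against 12.5% of all genes called higher. All 3 had every rehydrated animal above every control, as did 15.5% of all tested genes. SCNN1A (ENSJJAG00000021122, scaffold JH725554.1 from 1748338 to 1789642, 1962 bases in 13 exons), the alpha subunit, was at 202, 249, 224 and 210.5 CPM in the 4 controls and 400.0, 381, 385, 342 and 409 CPM in the 5 rehydrated animals. The lowest rehydrated animal was above the highest control. On the log2 scale the difference was 0.79 (SE 0.12, padj = 0.000207). The dehydrated animals were at 251, 234, 331 and 333 CPM, below every rehydrated animal and overlapping with the controls, and their log2 fold change of 0.37 against control did not pass (padj = 0.0833 by edgeR).

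SCNN1B, the beta subunit (ENSJJAG00000022984, scaffold JH725581.1 from 2148202 to 2189681), was at 79.3, 179, 95.6 and 87.0 CPM in controls and 234, 203, 274, 225 and 265 CPM in rehydrated animals. CM03 stood well above the other controls yet below every rehydrated animal. Rehydrated minus control came to 1.12 (SE 0.22, padj = 0.0013) in log2, with a 95% interval of 0.65 to 1.59. SCNN1G, the gamma subunit (ENSJJAG00000012195, scaffold JH725581.1 from 2328187 to 2360144), was at 68.3, 89.1, 78.9 and 82.8 CPM in controls and 119.9, 127, 168, 108 and 117 CPM in rehydrated animals. These groups did not overlap either, and the log2 fold change was 0.68 (SE 0.13, padj = 0.00137). With the length offset the 3 subunits had 0.87, 1.21 and 0.76 (padj = 0.00015, 0.000837 and 0.000764), since all have 1962 to 2149 exon bases, on the side of the length axis where rehydrated values were shifted down. The dehydrated animals were at 158, 126.3, 138 and 188 CPM for SCNN1B, overlapping with the controls, and 89.4, 109, 111 and 123 CPM for SCNN1G, overlapping with the rehydrated animals, and their log2 fold changes of 0.47 and 0.44 against control did not pass (padj = 0.224 and 0.0778 by edgeR). Between rehydrated and dehydrated animals, where 8.19% of all genes passed, none of the subunits did, with log2 differences of 0.42, 0.65 and 0.24 (padj = 0.0222, 0.043 and 0.202 by edgeR).

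Of the 8 tested aquaporins 1 was called, AQP1, and it was lower, against 16.2% of all genes called lower, so that the count is near the background. AQP1 (ENSJJAG00000017823, scaffold JH725445.1 from 7991327 to 8002054, 1047 exon bases) was at 707, 821, 706 and 784 CPM in controls, 817, 910.2, 1038 and 935 in dehydrated and 332, 516, 422, 664 and 522 in rehydrated animals. Every rehydrated kidney was below every control, and RHM01 was the lowest. Against control the log2 fold change was −0.62 (SE 0.16, padj = 0.00704), close to the threshold. It missed the threshold without CM03, CM04, CM06, RHM04 or RHM08 (the log2 fold change was −0.65 to −0.56 and padj 0.0127 to 0.0197), and in a fit of only the control and rehydrated animals (padj = 0.0159). Against dehydrated animals AQP1 was lower by a log2 difference of −0.91 (padj = 0.00308 by edgeR).

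AQP2 (ENSJJAG00000021696, scaffold JH725438.1 from 621935 to 628080) was at 191, 273, 209.6 and 217 CPM in controls and 100.2, 219, 172, 290.0 and 167 CPM in rehydrated animals, which lay on both sides of the controls. In log2 the difference was −0.23 (SE 0.23, padj = 0.447), and its 95% interval of −0.74 to 0.27 leaves room for a level well below control. The dehydrated animals were at 539.6, 609, 774 and 582 CPM, all above every control and every rehydrated animal, and the log2 difference of rehydrated from dehydrated kidneys was −1.72 (padj = 0.00137 by edgeR).

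AQP3 (ENSJJAG00000004334, scaffold JH725462.1 from 5715215 to 5720268) was at 41.3, 99.6, 53.0 and 68.9 CPM in controls, 185, 166, 276 and 242 in dehydrated and 57.7, 66.8, 66.5, 64.2 and 88.2 in rehydrated animals. The rehydrated values fell inside the range of the controls. Against control the log2 fold change was 0.06 (SE 0.23, padj = 0.843), interval −0.43 to 0.56, and against dehydrated animals −1.66 (padj = 0.00137).

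AQP4, a channel of the basolateral membrane, was near the floor of detection. It had 0.266, 0.177, 0.0986 and 0.261 CPM in controls, where 3 counts correspond to 0.131 to 0.152 CPM, and 0.373, 0.610, 0.905, 0.490 and 0.764 CPM in rehydrated animals. The groups did not overlap and the log2 fold change was 1.62 (SE 0.48, padj = 0.016), which did not pass. AQP6 (0.36, interval −0.13 to 0.86), AQP7 (−0.41, −0.90 to 0.08), AQP8 (−1.17, −2.42 to 0.07) and AQP11 (−0.20, −0.62 to 0.23) overlapped between the groups and were not called, with padj values of 0.217, 0.162, 0.117 and 0.444 by edgeR.

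**Figure D2:**
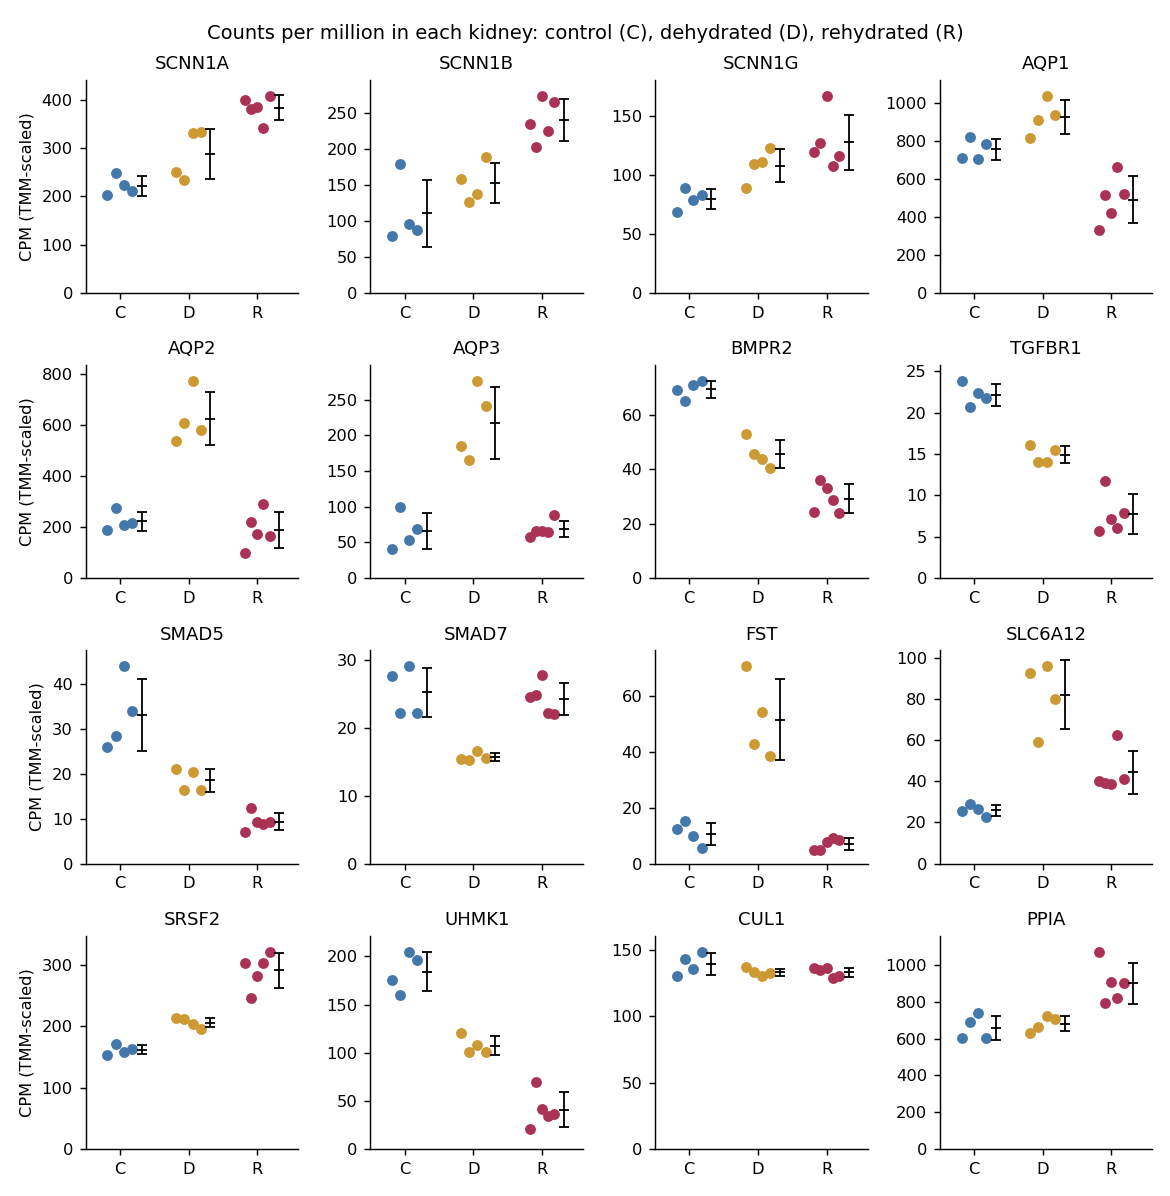
CPM (TMM-scaled, vertical axes from 0) of 16 named genes in each control (C), dehydrated (D) and rehydrated (R) kidney, 1 point per animal, with the group mean and SD beside the points. The group means of the ENaC subunits and SRSF2 are highest and those of BMPR2, TGFBR1, SMAD5 and UHMK1 lowest in rehydrated animals, whereas AQP2, AQP3, SMAD7 and FST overlap with controls.

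Receptors for BMP and TGF-beta were lower: 5 of 6 were called, against 16.2% of all genes called lower. All 6 had every rehydrated animal below every control, as did 18.6% of all tested genes. BMPR2, the type II receptor for BMPs (ENSJJAG00000015151, scaffold JH725448.1 from 13304047 to 13469248, 4238 exon bases), was at 68.9, 65.1, 70.9 and 72.4 CPM in controls, 52.7, 45.5, 43.6 and 40.3 in dehydrated and 24.1, 36.0, 33.1, 28.8 and 23.7 in rehydrated animals. The 3 groups stood apart without overlap, in that order. Against control BMPR2 had a log2 fold change of −1.25 (SE 0.12, padj = 2.46e-05), and that against dehydrated animals −0.64 (padj = 0.00496). BMPR2 is in the longest decile of genes, and with the length offset its log2 fold change was −1.05 (padj = 1.94e-05).

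TGFBR1, the type I receptor for TGF-beta (ENSJJAG00000008037, scaffold JH725457.1 from 19323165 to 19387613, 1709 exon bases), was at 23.8, 20.7, 22.3 and 21.7 CPM in controls and 5.72, 11.8, 7.12, 6.09 and 7.93 CPM in rehydrated animals. RHM02 was the highest of the rehydrated animals and still far below the controls. This gave a log2 fold change of −1.51 (SE 0.18, padj = 4.81e-05), −1.45 with the offset, and the dehydrated animals lay between at 16.1, 14.1, 13.98 and 15.5 CPM. BMPR1A, a type I receptor for BMPs (ENSJJAG00000021938, scaffold JH725460.1 from 26699166 to 26735067), averaged 54.0 ± 6.05 CPM in controls and 32.4 ± 4.82 CPM in rehydrated animals (± SD, n = 4 and 5). Its log2 fold change was −0.73 (SE 0.11, padj = 0.00024).

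TGFBR2, the type II receptor for TGF-beta, averaged 92.6 ± 6.51 CPM in controls and 61.5 ± 6.57 CPM in rehydrated animals, a log2 difference of −0.59 (SE 0.09, padj = 0.000281) by edgeR. TGFBR3, a co-receptor also called betaglycan, averaged 35.1 ± 3.74 and 18.1 ± 6.38 CPM, a log2 difference of −0.96 (SE 0.20, padj = 0.00225) by edgeR. BMPR1B, another type I receptor, had −0.79 (SE 0.23, padj = 0.0138) and was not called. It passed without RHM02 (−0.93, padj = 0.00775) and with DESeq2's Wald test (−0.79, padj = 0.00453). In the same fit the dehydrated animals had log2 fold changes against these controls of −0.37 for BMPR1A, −0.32 for BMPR1B, −0.61 for BMPR2, −0.57 for TGFBR1, −0.27 for TGFBR2 and −0.14 for TGFBR3, none of which passed (0.478% of all genes did in that comparison).

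The SMADs downstream went separate ways. SMAD5, which carries the signal of BMP receptors to the nucleus (ENSJJAG00000019065, scaffold JH725512.1 from 8153372 to 8166441, 1570 exon bases), was at 25.9, 28.3, 43.9 and 33.8 CPM in controls, 21.1, 16.3, 20.3 and 16.2 in dehydrated and 6.91, 12.3, 9.33, 8.82 and 9.34 in rehydrated animals. The highest rehydrated animal was below the lowest animal of either other group. For SMAD5 the log2 fold change against control was −1.82 (SE 0.18, padj = 2.38e-05), −1.76 with the length offset, and against dehydrated animals it was −0.98 (padj = 0.00385).

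SMAD7, an inhibitor of TGF-beta receptors (ENSJJAG00000017342, scaffold JH725456.1 from 9932378 to 9959671), was at 27.6, 22.1, 29.0 and 22.1 CPM in controls and 24.6, 24.8, 27.8, 22.1 and 22.0 CPM in rehydrated animals, which overlapped almost fully. Their log2 difference was −0.06 (SE 0.11, padj = 0.698) with an interval of −0.28 to 0.17, so that a shift of the size of SMAD5 lies outside it. The dehydrated animals were at 15.4, 15.2, 16.6 and 15.6 CPM, below every animal of the other groups, and rehydrated kidneys differed from them by 0.63 (padj = 0.00286 by edgeR). SMAD9 had few counts, with 1.46 to 2.26 CPM in controls and 0.560 to 2.03 CPM in rehydrated animals. Its log2 fold change of −0.79 (SE 0.35, padj = 0.0846) was not called, and it passed without RHM02 (−1.20, padj = 0.00613).

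None of the 4 secreted BMP antagonists described here was called by edgeR or by DESeq2's Wald test, where edgeR called 28.8% of all genes. With only 4 genes, no call is little different from that share. Of the 4, 1 (FST) had an unadjusted p under 0.05 (0.0479 by edgeR), as did 7723 of the 15064 tested genes. FST (follistatin, ENSJJAG00000014889, scaffold JH725511.1 from 8311943 to 8315729) was at 12.3, 15.1, 9.76 and 5.64 CPM in controls, 70.8, 42.8, 54.4 and 38.5 in dehydrated and 4.79, 4.78, 7.69, 9.17 and 8.34 in rehydrated animals. The rehydrated animals lay from just below the lowest control up to the level of the controls, and all were far below the dehydrated ones. FST had a log2 fold change of −0.63 (SE 0.29, padj = 0.0942) against control, interval −1.25 to −0.01, and −2.90 against dehydrated animals (padj = 0.000681).

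NBL1 was at 4.91 to 7.23 CPM in controls, 12.0 to 39.4 in dehydrated and 6.28 to 15.5 in rehydrated animals, with a log2 fold change against control of 0.68 (SE 0.35, padj = 0.126). SOSTDC1 had −0.07 (SE 0.27, padj = 0.855) and SOST, at 0.646 to 2.34 CPM in rehydrated animals, −0.69 (SE 0.40, padj = 0.183). Without CM03, whose SOSTDC1 level of 33.7 CPM was the highest of the controls, the log2 fold change of SOSTDC1 was 0.27 (padj = 0.351). GREM1 and DAND5 were below the minimum mean count of 8, and DAND5 had no count in any of the 13 animals.

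Among the solute carriers, SLC6A12, which imports betaine (ENSJJAG00000018463, scaffold JH725563.1 from 1273607 to 1294715, 1927 exon bases), was above control. It was at 25.3, 29.0, 26.7 and 22.8 CPM in controls, 92.9, 59.1, 95.9 and 80.2 in dehydrated and 40.2, 39.1, 38.4, 62.7 and 41.0 in rehydrated animals. Apart from RHM07 the rehydrated animals lay within 38.4 to 41.0 CPM, and RHM07 reached into the dehydrated range. Its log2 differences were 0.77 (SE 0.17, padj = 0.00285) against control and −0.89 against dehydrated animals (padj = 0.00407). The call against control was lost without CM01 (0.74, padj = 0.0101) or without CM06 (0.71, padj = 0.0114).

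SLC38A3, a glutamine transporter used in ammonia formation, overlapped with control at 164, 192, 159.9, 233 and 196 CPM against 208, 123, 152 and 163 CPM, with 0.23 (SE 0.24, padj = 0.469). Against the dehydrated animals at 354, 275, 692 and 551 CPM it was lower by −1.31 (padj = 0.00361). SLC17A3, a phosphate and urate transporter, had 0.23 (SE 0.11, padj = 0.103) and the nuclear receptor ESRRB 0.23 (SE 0.11, padj = 0.105), neither of which was called. SLC17A3 passed without RHM01 (0.32, padj = 0.00793), the rehydrated animal with the lowest value. For SLC38A3, SLC17A3 and ESRRB the 95% intervals were −0.29 to 0.74, −0.00 to 0.47 and −0.01 to 0.47.

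Of the 5 splicing-linked genes 4 were called higher and 1 lower, against 12.5% and 16.2% of all genes. All were without overlap between control and rehydrated animals, as were 34.2% of all tested genes. SRSF2, a serine and arginine rich splicing factor (ENSJJAG00000013794, scaffold JH725452.1 from 17047073 to 17050153, 1814 exon bases), was at 154, 172, 159 and 163 CPM in controls, 213, 212, 203 and 196 in dehydrated and 303, 246, 282, 303 and 322 in rehydrated animals. Each group lay above the one before. The log2 difference of rehydrated from dehydrated kidneys was 0.50 (padj = 0.00246 by edgeR). That from control was 0.85 (SE 0.08), and 0.92 with the offset.

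CLK3, a kinase of splicing factors, was at 73.8, 78.8, 79.5 and 80.7 CPM in controls and 134, 112, 139, 124 and 127 CPM in rehydrated animals. LUC7L3, linked to the U1 snRNP, was at 102, 113, 118 and 110.1 and 192, 167, 215, 188 and 199 CPM, and EWSR1, an RNA-binding protein, at 286, 283, 301 and 276 and 509, 371, 419.7, 417 and 452 CPM. RHM02 was the lowest rehydrated animal for all 4 of the higher genes. The log2 fold changes of CLK3, LUC7L3 and EWSR1 were 0.70, 0.79 and 0.60, and with the length offset 0.77, 0.96 and 0.73. Among these LUC7L3, in the longest decile with 3456 exon bases, moved most with the offset.

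UHMK1, a kinase that binds and phosphorylates splicing factor SF1 (ENSJJAG00000015993, scaffold JH725495.1 from 918433 to 940151, 2518 exon bases), had the largest change of the named genes. It was at 175, 160.1, 205 and 196 CPM in controls, 121, 100.4, 108 and 100.7 in dehydrated and 20.7, 69.8, 41.8, 34.6 and 36.8 in rehydrated animals. RHM01 was the lowest and RHM02 the highest of the rehydrated animals, and the highest lay below the lowest dehydrated animal. Against control the log2 fold change of UHMK1 was −2.17 (SE 0.25), and with the length offset −2.08 (padj = 3.54e-05 by edgeR).

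The genes that the study used as references for its qPCR were also looked at. The paper selected CUL1 and PPIA together, as the pair that NormFinder ranked best, and ran its qPCR on more animals, of both sexes. The values here are sequencing counts of males only and do not test that choice. CUL1 was at 130.1, 143, 136 and 149 CPM in controls and 136, 135, 137, 129 and 130.5 CPM in rehydrated animals, with −0.07 (SE 0.06, padj = 0.414) and an interval of −0.20 to 0.07. With the offset its sign turned (0.08, padj = 0.372). PPIA, a short gene of 758 exon bases, was at 607, 690.3, 739 and 607 CPM in controls, 631, 664, 722 and 709 in dehydrated and 1075, 792, 909, 824 and 906 in rehydrated animals. All rehydrated animals were above all others. Its log2 fold change was 0.45 (SE 0.10, padj = 0.00361), 0.40 with the offset (padj = 0.00642). The call was lost without CM01 (0.39, padj = 0.0211), without CM03 (0.45, just at the threshold) or without CM06 (0.41, 0.0144), and in a fit of only the control and rehydrated animals (0.43, 0.0159).

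Larger groups of genes were described through the identifiers that the paper's supplement prints for enriched terms of its network modules. The lists are the printed part of the terms, and the modules were built on these same animals, so that the direction of a list is not independent evidence. Some genes are printed under more than 1 term, so the lists are not separate groups. Over all lists 85 different genes were called. Of the 41 ribosome genes 24 were called higher and 0 lower by edgeR (32 and 0 at an unadjusted p under 0.05, and 27 and 0 by DESeq2), against 12.5% and 16.2% of all genes. Their median log2 fold change was 0.54 against 0.03 over all tested genes, and their summed level was 4277 to 4531 CPM in controls, 4491 to 5044 in dehydrated and 5638 to 7688 CPM in rehydrated animals, which were above all others. These genes are short, with a median of 505 exon bases, and with the length offset 20 were called higher (13.5% of all genes were) and the median was 0.43, against 0.06 over all genes. Of the 41, 27 were among the 1194 short genes with the highest counts, where 32% were called higher with a median of 0.26 (21.5% and 0.18 with the offset). Of these 27, 20 were called higher with a median of 0.54 (16 and 0.42 with the offset). Without CM01 14 were called, and RHM01 had the highest summed level.

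Of the 21 genes of cilium movement 5 (23.8%, against 12.5% of all genes) were called higher and 0 lower by edgeR (8 and 0 unadjusted, 7 and 0 by DESeq2), with a median of 0.55 and 0.51 with the offset. The count was 2 without CM01 and 2 without CM06, and 3 without CM03 or RHM01. Of the 21 genes of cation channel activity, a long-gene list with a median of 2907 exon bases, 2 were called higher and 0 lower by edgeR (5 and 0 unadjusted, 4 and 0 by DESeq2). That is 9.52% of the list, below the 12.5% of all genes called higher. With the offset 4 were higher and the median rose from 0.38 to 0.61, and 4 were called without RHM07.

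The lists printed for the “turquoise” module, which share members, were lower. Of the 27 genes of the apical plasma membrane, the face of tubule cells toward the urine, 13 were called lower and 0 higher by edgeR (23 and 0 unadjusted, 18 and 0 by DESeq2). Their summed level was 7594 to 8787 CPM in controls, 5022 to 5696 in dehydrated and 2827 to 4873 in rehydrated animals. The median log2 fold change was −0.79, and with the offset 13 were called lower, with a median of −0.72.

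For transmembrane transport 14 of 30 genes were called lower, with a median of −0.67 (11 and −0.54 with the offset). Their summed level was 3885 to 4295 CPM in controls and 1466 to 2635 CPM in rehydrated animals, lowest in RHM01. Protein phosphorylation had 15 of 29 lower with a median of −0.58 (15 and −0.53 with the offset), and homeostasis 15 of 29 with −0.63 (14 and −0.51). Cell adhesion had 11 of 30 with −0.38 (10 and −0.32) and lipid metabolism 5 of 21 with −0.28 (5 and −0.27). Beside these, 16.2% of all genes were called lower, or 14.8% with the offset. In each of these 6 lists 0 genes were called higher by edgeR, by DESeq2 and at an unadjusted p under 0.05.

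**Figure D3:**
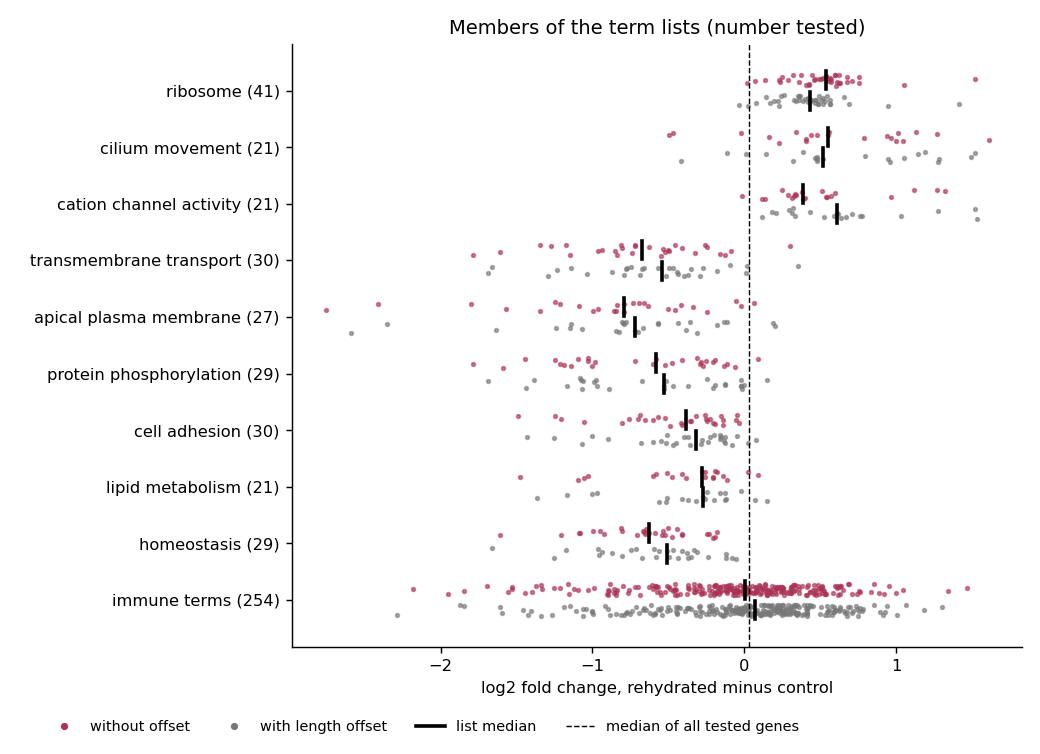
Log2 fold change of rehydrated minus control kidneys (horizontal axis) for the members of each term list, without (red) and with (grey) the length offset, with the list median as a black bar and the median of all tested genes as a dashed line. The ribosome median moves from 0.54 to 0.43 and that of cation channel activity from 0.38 to 0.61 with the offset, and no list median changes sign.

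Of the 254 printed genes of immune terms 0 were called by edgeR or DESeq2, where edgeR called 28.8% of all genes. At an unadjusted p under 0.05, 2 were higher and 2 lower. The list is from the “brown” module, in which the paper names CM01 and RHM01 as drivers of variance. With 1 such animal in each group, few calls say little about a difference between the groups. The summed level was 17206 CPM in CM01 and 2141 to 3394 CPM in the other controls, and 13367 CPM in RHM01 and 2731 to 3445 CPM in the other rehydrated animals. With CM01 and RHM01 left out 2 of the 240 genes still tested were called, both higher, and the median log2 fold change was 0.03. Without these animals the calls over all genes numbered 3358, of which 3172 were also called with them. The ribosome list had 20 higher genes and the apical membrane list 13 lower, and the receptors' direction did not change. Transmembrane transport had 10 lower genes and homeostasis 11. Of the named genes 14 were called, against 17, and AQP1, SLC6A12 and PPIA lost their calls (padj = 0.0112, 0.0107 and 0.0187 by edgeR).

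On the mitochondrial genome 1 of 33 tested genes was called higher (against 12.5% of all genes) and 0 lower (median 0.30, or 0.23 with the offset, with 0 called). Its tested genes have a median of 73 exon bases, and the longest has 1809. Their summed level was 93781 to 127389 CPM in controls and 124826 to 166824 CPM in rehydrated animals, with RHM01 and RHM08 highest. The part of this share in the other differences was not tested. The difference in slope on length was −0.0885 with the mitochondrial genes left out of the regression. They stayed in the library totals, so this value does not test the share either.

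Large changes that the length offset left in place were picked by a rule, and the count table gives these genes, like all others, only by identifier. A total of 1479 higher and 1972 lower genes were called in both fits, had a mean count of 50 or more and did not overlap between control and rehydrated animals. Without this rule the log2 fold changes over all tested genes ran from −5.66 to 7.96. By lack of overlap alone, 15.5% of all tested genes were higher and 18.6% lower. ENSJJAG00000015692 (scaffold JH725486.1 from 1039866 to 1045722, 1620 exon bases) was at 3.37, 5.55, 7.84 and 9.77 CPM in controls, 7.64, 9.46, 8.66 and 6.60 in dehydrated and 64.5, 40.1, 93.7, 94.7 and 21.2 in rehydrated animals. Dehydrated animals were at the level of the controls and rehydrated animals far above. The log2 fold change was 3.25 (SE 0.43, padj = 0.000106) and 3.32 with the offset.

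ENSJJAG00000013432 was at 1.82, 1.33, 0.986 and 1.41 CPM in controls, 8.97, 10.5, 10.4 and 8.89 in dehydrated and 3.86, 6.36, 7.12, 11.8 and 4.17 in rehydrated animals. It was high in both groups that had been without water, with log2 fold changes of 2.80 in dehydrated (padj = 0.00245) and 2.26 in rehydrated kidneys (padj = 0.000142), both against the same controls. Among the lower genes, ENSJJAG00000006344 was at 27.0, 31.2, 182 and 176 CPM in controls and 4.48, 3.86, 3.11, 6.72 and 2.82 CPM in rehydrated animals. The controls themselves differed widely, with CM04 and CM06 far above CM01 and CM03. Its log2 fold change was −4.64 (SE 0.65, padj = 0.000138). ENSJJAG00000012416 was at 2.61, 9.63, 63.2 and 19.5 CPM in controls and 1.24, 1.02, 0.622, 1.82 and 1.18 CPM in rehydrated animals, again with uneven controls, and its log2 fold change was −4.34 (SE 0.79, padj = 0.00082). The 10 largest higher genes by this rule had log2 fold changes of 1.83 to 3.25 and the 10 largest lower ones −4.64 to −2.52, with exon lengths of 687 to 3963 and 408 to 4007 bases.

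The length trend itself was as follows. Length is the number of exon bases per gene in the count table, from 12 to 26368 among the genes tested with a median of 1320.5. In each animal the log2 CPM (with a prior count of 1) of every gene was taken as a deviation from its mean over the 13 animals and regressed on log2 length. The slope was 0.0239, 0.0367, 0.0378 and 0.0541 log2 units per doubling of length in the controls and −0.0858, −0.0169, −0.0564, −0.0315 and −0.0587 in the rehydrated animals. All 5 rehydrated slopes were below 0 and all 4 control slopes above 0. The means were 0.0381 ± 0.0124 (SD, n = 4) and −0.0499 ± 0.0267 (SD, n = 5), and the rehydrated minus control difference was −0.0880 (p = 0.00794 in a two-sided exact permutation test, the smallest that this design allows, and 0.0132 after adjustment for 5 tests). The dehydrated animals had slopes of 0.0372, 0.00633, 0.0379 and 0.0155, a mean of 0.0242 ± 0.0158 (SD, n = 4).

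Short genes stood higher and long genes lower in rehydrated kidneys than in controls. In the decile of genes with the shortest exons (12 to 417 bases) the median log2 fold change was 0.24, and in the decile with the longest (3447 to 26368 bases) it was −0.19. In the decile of 1086 to 1320 bases it was 0.02. The dehydrated animals, set against the same controls, had medians of 0.03 in the shortest and −0.05 in the longest decile. Per animal, the median deviation of the shortest decile from the control mean was 0.295 in RHM01, 0.166 in RHM02, 0.237 in RHM04, 0.185 in RHM07 and 0.249 in RHM08, and in controls it lay between −0.0258 and 0.0284. For the longest decile it was −0.258, −0.131, −0.200, −0.185 and −0.226 in the same rehydrated animals and −0.0524 to 0.0335 in controls. RHM01 was the most extreme and RHM02 the least extreme animal at both ends.

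**Figure D4:**
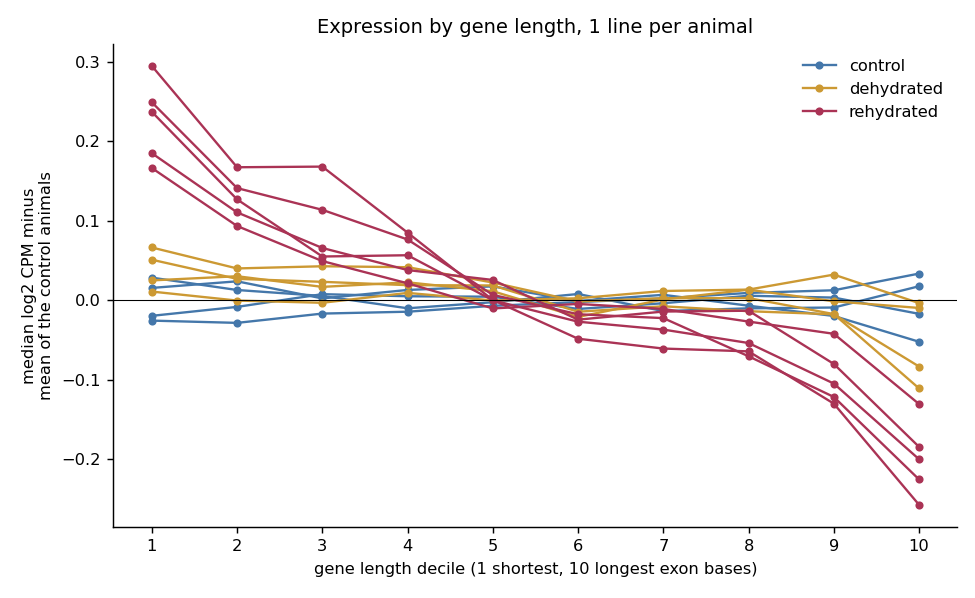
Median over genes of log2 CPM minus the mean of the control animals (vertical axis, log2 units) by decile of exon length (horizontal axis, 1 shortest to 10 longest), with 1 line per animal and the color giving the group. The 5 rehydrated lines run from between 0.166 and 0.295 in the shortest decile to between −0.131 and −0.258 in the longest, and the control lines stay near 0.

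The slopes were also taken within equal groups of genes with low, middle and high expression. For low expression (a mean count of 8 to 167) the slope differed between the groups by −0.0312 (p = 0.159 in the exact permutation test), which did not pass. For middle expression the difference was −0.105 and for high expression −0.136 (p = 0.00794 for each by the same exact test, 0.0132 adjusted). The difference between these expression groups was not tested. Among the genes with the lowest counts the median log2 fold change was 0.10 for short genes (up to 939 bases), 0.11 for genes of middle length and 0.07 for long genes (over 1809 bases). Among genes with the highest counts the medians were 0.26, 0.01 and −0.11. Genes with 1 exon followed length as well, with a median of 0.25 over 811 short genes and −0.35 over 37 long ones. Genes with over 10 exons had 0.14 over 36 short and −0.09 over 3922 long genes.

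The calls carried the same tilt. In the shortest decile 15.1% of genes were called higher and 7.64% lower, and in the longest 8.63% higher and 29.7% lower. Genes called higher had a median length of 1203 bases and genes called lower one of 1757.5, against 1249 for genes not called. With the offset the shares in the shortest decile became 6.91% higher and 10.4% lower, and in the longest 17.7% and 20.4%.

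Over all calls with the offset the share of higher genes among the calls was 47.7%, against 43.6% without it. The median lengths of higher and lower genes drew together, to 1597 and 1533 bases. The count of calls in either direction still grew with length, and longer genes also had more counts (a median of the mean count of 108 in the shortest and 787 in the longest decile). A change of over 2-fold in both fits was held by 263 higher and 768 lower genes.

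**Figure D5:**
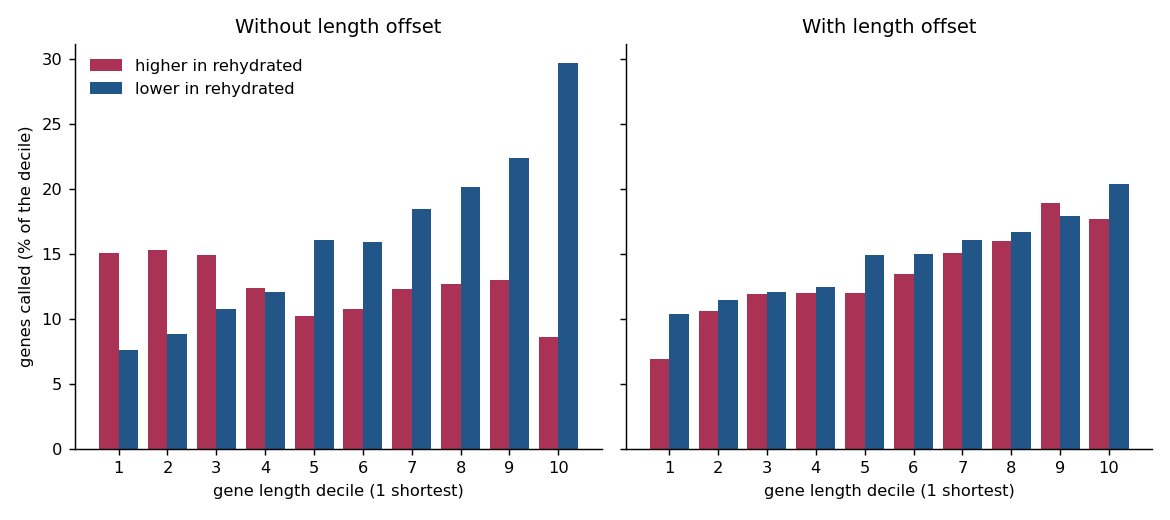
Share of the genes in each length decile (horizontal axis, 1 shortest) called higher or lower in rehydrated than in control kidneys at an adjusted p under 0.01 (vertical axis, %), without (left) and with (right) the length offset. Without it the longest decile has 8.63% higher and 29.7% lower genes, and with it 17.7% and 20.4%.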

How the data were processed

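RNA of the whole left kidney of male Jerboas was sequenced as paired reads after polyA selection. The values deposited are raw counts per gene in 1 table of 24433 genes. Per the labels and the paper the authors trimmed reads, aligned them with Subread 1.6.2 to JacJac1.0 with its Ensembl annotation and counted them per gene with featureCounts. The strand setting is not given in the sources used here. Polyadenylated RNA counted over whole genes carries a weight for length and for RNA integrity, which TMM scaling does not remove.

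Groups came from the sample titles and animals are named as in the table. A further 2 per-sample columns without a label were not used. All 16 pairs of animals within the compared groups varied well beyond sampling error (chi-square over its degrees of freedom 29.6 to 86.3), so precision comes from the spread between animals, each of which is 1 replicate. Counts of 3 or fewer (0.131 to 0.213 CPM) were not read as expression, and this floor covers counting error only.

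The 15064 genes whose mean count over the 13 animals reached 8 were fitted for all 3 groups in R 4.3.3 with edgeR 4.0.16, scaled by TMM, and tested with the quasi-likelihood test, with Benjamini-Hochberg adjustment over all of them and a threshold of 0.01. Standard errors are the log2 fold change over the root of F. Intervals are 95% t intervals from the fit. Per-animal values were compared by exact permutation. Scripts were tested on simulated data.

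Alternatives were other scaling, filters, thresholds and samples, DESeq2 1.42.0, length corrections, the animal number as a block and leaving out each animal.

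The members, lists and tests were chosen with earlier results of these data known. Named genes are those the paper prints with an identifier and, per direction, the 10 largest changes called in both fits, with mean counts from 50 and no overlap. Of the latter 2 per direction are printed, and genes called only with the offset are counted, not named. One gene the paper names is not reported here. CER1, not called, is in the counts only. The table pairs no identifier with a symbol and 0 identifiers matched the RefSeq table, so symbol-based lists and cell type markers could not be applied.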

Additional observations from a re-analysis of the deposited data

Results flagged for a closer look

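In 8 of 96 groups of values tested (named genes, summed term lists and the slope on length, each in controls and in rehydrated animals), 1 animal stood apart from the others of its group by a gap that was a large part of the range. For independent values with a normal spread chance gives about 1 in 20 such groups. These groups come from the same animals and share list members, so 8 of 96 cannot be set against that rate.

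CM03 was high among the controls in 3 of them: SCNN1B at 179 CPM against 79.3 to 95.6 CPM in the other controls, SOSTDC1 at 33.7 CPM against 14.8 to 16.8 CPM, and the summed list of cation channel activity at 827 CPM against 599 to 636 CPM. Among the rehydrated animals RHM02 was high for SOSTDC1, at 26.2 CPM against 16.3 to 18.9 CPM, and RHM07 for SLC6A12, at 62.7 CPM against 38.4 to 41.0 CPM. CM06 was high in the summed list of transmembrane transport, at 4295 CPM against 3885 to 3921 CPM.

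The summed immune terms were high in CM01, at 17206 CPM against 2141 to 3394 CPM in the other controls, and in RHM01, at 13367 CPM against 2731 to 3445 CPM in the other rehydrated animals.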

How the results depend on the processing

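The count of calls (4331) was 3257 to 5439 under other scaling, filters, DESeq2, the fit of only the control and rehydrated animals and the fit without both animals numbered 01. It was 3334 to 4491 when each animal was left out. With an adjusted p under 0.05 it was 6563, 3132 of them higher. Requiring a fold of over 1.5 left 1010 higher genes, and the fit of only control and rehydrated animals left 1232. In that fit 14 ribosome and 3 cilium movement genes were called, and without both animals numbered 01, 2 cilium movement and 2 immune genes. Cation channel activity had 4 calls with the length offset, with DESeq2 and under 0.05. Under 0.05 cilium movement had 8, the apical membrane 23 and lipid metabolism 8. With the fold of over 1.5 ribosome had 11, cilium movement 3 and cell adhesion 7. Leaving out each animal gave 14 to 25 calls for ribosome, 2 to 5 for cilium movement, 2 to 4 for cation channel activity and 0 to 1 for immune terms. The cause was not tested.

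Control and rehydrated animals share the numbers 01 and 04, which do not mark the same animal. Deviations from the group means correlated at 0.338 for CM01 and RHM01 and at 0.158 for CM04 and RHM04, against −0.0253 on average over 18 other pairs. With the number as a replicate block, which leaves few residual degrees of freedom, 987 genes were called (223 higher, 764 lower), and 854 (260 and 594) with the length offset as well. With the block 26 different list genes were called. By list, with shared genes counted in each, these were ribosome 4, cilium movement 1, cation channel activity 0, transmembrane transport 4, apical membrane 8, phosphorylation 7, adhesion 3, lipid metabolism 2, homeostasis 2 and immune terms 1. With the block and offset 18 different list genes were called: 1, 1, 1, 4, 4, 5, 3, 1, 2 and 1 in the same order. Of the named genes 9 were called with the block and 8 with the offset too, against 17. The calls lost with the block were those of SCNN1A, SCNN1B, AQP1, BMPR1A, TGFBR3, SLC6A12, EWSR1 and PPIA.

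The slope difference was −0.0963 to −0.0791 when each animal was left out and −0.0312 (exact permutation test, p = 0.159) in the genes with the lowest mean counts, an alternative added after seeing the data. Signs turned only for genes that were not called: AQP3 (−0.0488 without both animals numbered 01 and −0.12 to 0.31 without each animal), SMAD7 (0.0162 with block and offset, −0.14 to 0.0184 without each animal), SOSTDC1 (−0.22 to 0.27 without each animal) and CUL1 (0.0777 with the offset, 0.16 with block and offset). The planned slope without ribosomal and histone genes was not run, since identifiers could not be matched to symbols. Depth limits AQP4, SMAD9 and SOST, which had few counts.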
